A study of Mus musculus with 18 samples.

Results

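Oxidative phosphorylation is the work of 5 protein assemblies of the inner mitochondrial membrane. Complex I (NADH dehydrogenase) and complex II (succinate dehydrogenase) pass electrons to ubiquinone, complex III hands them on to cytochrome c, complex IV (cytochrome c oxidase) gives them to oxygen, and complex V (ATP synthase) makes ATP from the proton gradient that complexes I, III and IV build. Heart muscle is rich in these complexes, and cytochrome oxidase has muscle forms of some of its subunits beside the forms that most other cells use.

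The genes described here were those whose symbol on the array begins with Nduf, Uqcr, Atp5 or Cox4 to Cox8, together with the succinate dehydrogenase subunits Sdha, Sdhb, Sdhc and Sdhd. The muscle isoforms Cox6a2, Cox7a1 and Cox8b were left out. This gave 84 of the 19057 gene symbols on the array, with 132 probes: 44 genes for complex I, 4 for complex II, 7 for complex III, 13 for complex IV and 16 for complex V. The complex I genes include 6 core subunits encoded in the nucleus, 29 accessory subunits, 8 assembly factors (Ndufaf genes, which help to build the complex and are not part of it) and 1 pseudogene symbol, Ndufs5-ps. Ndufa4, now assigned to complex IV, and Cox7a2l, which helps the complexes to associate, were kept under the complex their symbols name.

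The cells were the GFP-bright fraction of ventricles taken from embryonic hearts that carry Wt1GFP, a knock-in allele, and their RNA was read on each day between E11.5 and E16.5, with 3 arrays a day and 18 in all. All arrays share that allele, and no wild-type or GFP-negative group is among them. The labels give neither its zygosity nor the litters behind the arrays, so the p-values reflect only array-to-array spread, which may be technical. GFP marks cells that use the Wt1 gene, such as those of the epicardium, which covers the heart. The sort is defined by brightness and not by cell type.

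Of the 84 genes, 78 had a probe above the background floor of 109 intensity units on at least 3 arrays and were tested among 10845 genes, 72 of them above it on all 18 arrays. Cox4i2, Cox7b, Atp5md, Ndufb4, Atp5k and Sdhd were above it on 6 to 17 arrays. Sdha, Ndufs1, Ndufaf6, Uqcrfs1, Cox7b2 and Cox8c were above it on 0 arrays and were not tested. For them low RNA cannot be told apart from a probe that detects its RNA poorly. A level of about 99.1 intensity units of background is still in every value, so log2 differences of dim genes understate the differences in RNA. Probes bind with different strength, and no gene's level is compared with another's here.

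Markers of the cells were read on the same arrays. Of 14 epicardial and mesothelial markers 13 were measured, with means on the log2 scale of 8.93 to 9.08 at E11.5, 7.91 to 7.99 at E14.5 and 8.72 to 9.10 at E16.5. These means join markers that went in both directions. Between E16.5 and E11.5 3 of the 13 were called higher and 6 lower (69.2%, against 34.6% of all genes). Their differences ran from -1.48 to 2.54, with a median of -0.33. The 22 cardiomyocyte markers, 17 of them above the floor on all arrays, had means of 8.46 to 8.79 at E11.5, 8.82 to 9.23 at E12.5, 8.94 to 9.93 at E13.5 and 10.38 to 10.55 at E14.5. At E15.5 they stood at 10.81, 8.75 and 9.05 in replicates 1, 2 and 3, and at E16.5 at 10.61, 9.05 and 8.77. Replicate 1 of E15.5 and of E16.5 therefore stood apart from the other arrays of their stages, and with the 3 E14.5 arrays they were the 5 arrays with the highest cardiomyocyte means. The cardiomyocyte means too join markers that went in both directions. Between E16.5 and E11.5 the 22 differed by -2.15 to 3.15, with a median of 0.97 and 19 above 0. Of them 5 were called higher and 1 lower (27.3%, against 34.6% of all genes). The 11 measured endothelial and endocardial markers went from 7.46 to 7.57 at E11.5 up to 10.45 to 10.76 at E16.5. Of 8 erythroid genes 5 were called higher and 1 lower at E16.5 than at E11.5, with list means of 6.76 to 7.73 at E11.5 and 9.09 to 9.42 at E16.5. Of the leukocyte genes Ptprc, C1qa, C1qb, Lyz2 and Tyrobp were above the floor on 0 arrays. The 2 that were measured, Laptm5 and Csf1r, were called higher at E16.5 by 2.29 and 0.33 (adjusted p = 4.25e-07 and 0.00193), with means of 6.69 to 6.78 at E11.5 and 7.87 to 8.17 at E16.5. In sorted bulk RNA, fewer cells of a type and less RNA per cell cannot be told apart.

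Promoters of the respiratory genes are known to carry sites for NRF1, GABP, YY1 and the estrogen-related receptors (ERR), factors that couple nuclear genes to mitochondrial growth. RefSeq windows of 300 bases on GRCm38.p6, 250 before and 50 after each start, were matched for 70 of the 84 genes. The 5 windows below show, for each complex, the gene with the smallest F test p that had a window, printed 5′ to 3′ on the gene's strand with the matched motif in capitals.
Ndufa6: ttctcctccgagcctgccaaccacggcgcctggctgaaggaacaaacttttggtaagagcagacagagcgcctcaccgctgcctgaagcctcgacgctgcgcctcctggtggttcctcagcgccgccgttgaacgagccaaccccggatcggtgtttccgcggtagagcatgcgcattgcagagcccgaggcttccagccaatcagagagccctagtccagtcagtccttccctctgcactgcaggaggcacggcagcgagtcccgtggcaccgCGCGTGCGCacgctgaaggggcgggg
Sdhb: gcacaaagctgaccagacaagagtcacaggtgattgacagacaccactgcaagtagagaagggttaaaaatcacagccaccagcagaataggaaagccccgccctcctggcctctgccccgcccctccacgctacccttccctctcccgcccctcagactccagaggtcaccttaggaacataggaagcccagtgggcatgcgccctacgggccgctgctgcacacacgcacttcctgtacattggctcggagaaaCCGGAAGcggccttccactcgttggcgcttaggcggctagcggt
Uqcr10: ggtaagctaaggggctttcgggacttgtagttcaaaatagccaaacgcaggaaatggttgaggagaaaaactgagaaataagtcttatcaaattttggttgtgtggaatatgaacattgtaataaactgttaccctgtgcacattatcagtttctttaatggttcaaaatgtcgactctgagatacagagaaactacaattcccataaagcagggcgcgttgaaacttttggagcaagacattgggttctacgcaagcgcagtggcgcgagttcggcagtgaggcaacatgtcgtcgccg
Cox6b1: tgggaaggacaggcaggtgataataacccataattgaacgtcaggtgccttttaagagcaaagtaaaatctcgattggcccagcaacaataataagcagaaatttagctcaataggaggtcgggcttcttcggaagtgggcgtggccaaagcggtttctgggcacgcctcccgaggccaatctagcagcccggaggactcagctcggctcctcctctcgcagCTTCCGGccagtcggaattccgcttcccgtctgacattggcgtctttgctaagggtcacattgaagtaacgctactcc
Atp5o: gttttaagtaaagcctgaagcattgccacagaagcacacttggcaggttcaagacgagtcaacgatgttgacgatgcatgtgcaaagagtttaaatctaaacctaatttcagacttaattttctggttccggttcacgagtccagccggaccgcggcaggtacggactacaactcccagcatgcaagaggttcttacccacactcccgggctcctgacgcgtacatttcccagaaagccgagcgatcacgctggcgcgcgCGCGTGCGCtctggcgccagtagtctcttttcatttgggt
The windows lie at chr15:82354242-82354541 (minus strand, Ndufa6), chr4:140961021-140961320 (plus, Sdhb), chr11:4704295-4704594 (minus, Uqcr10), chr7:30626065-30626364 (minus, Cox6b1) and chr16:91931581-91931880 (minus, Atp5o). Ndufa6 and Atp5o hold the NRF1 motif, Sdhb and Cox6b1 hold the GABP motif, and none of the 4 motifs was in the Uqcr10 window.

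The motifs were searched on both strands as fixed letters, and a match describes the letters and not a site in use. GCGCANGCG (NRF1) was found in 21 of the 70 genes (30.0%) against 7.03% of all 27025 genes with a window. CCGGAAG (GABP) was found in 18 (25.7%) against 9.93%, AAGATGGC (YY1) in 11 (15.7%) against 3.19%, and AAGGTCA (ERR) in 7 (10.0%) against 5.38%. None of these motifs contains another. At least 1 of the 4 stood in 22 of 39 genes of complex I, 3 of 3 of complex II, 3 of 5 of complex III, 2 of 9 of complex IV and 12 of 14 of complex V, in all 42 of the 70 genes against 22.4% of all genes with a window. The member windows also had a higher GC content, 58.2% against 53.8%, and its part in these shares was not tested.

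On 15 of 18 arrays the means of the 5 complexes lay on the same side of their average over all arrays, the exceptions being the 3 arrays of E13.5. When each gene was set to its own mean over the 18 arrays, the members' mean was -0.11, -0.06 and -0.17 on the log2 scale at E11.5 and -0.15, -0.16 and -0.22 at E12.5. It was -0.03, -0.03 and 0.06 at E13.5, then 0.23, 0.17 and 0.25 at E14.5. At E15.5 replicate 1 stood at 0.50 and the others at -0.19 and -0.04, and at E16.5 replicate 1 stood at 0.24 and the others at -0.09 and -0.20. The 5 highest arrays were the 5 with the highest cardiomyocyte marker means. On a single array the means of the 5 complexes lay within 0.03 to 0.30 of each other, the widest gap being that between complexes I and II (0.20 and 0.50) on replicate 1 of E16.5.

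**Figure D1:**
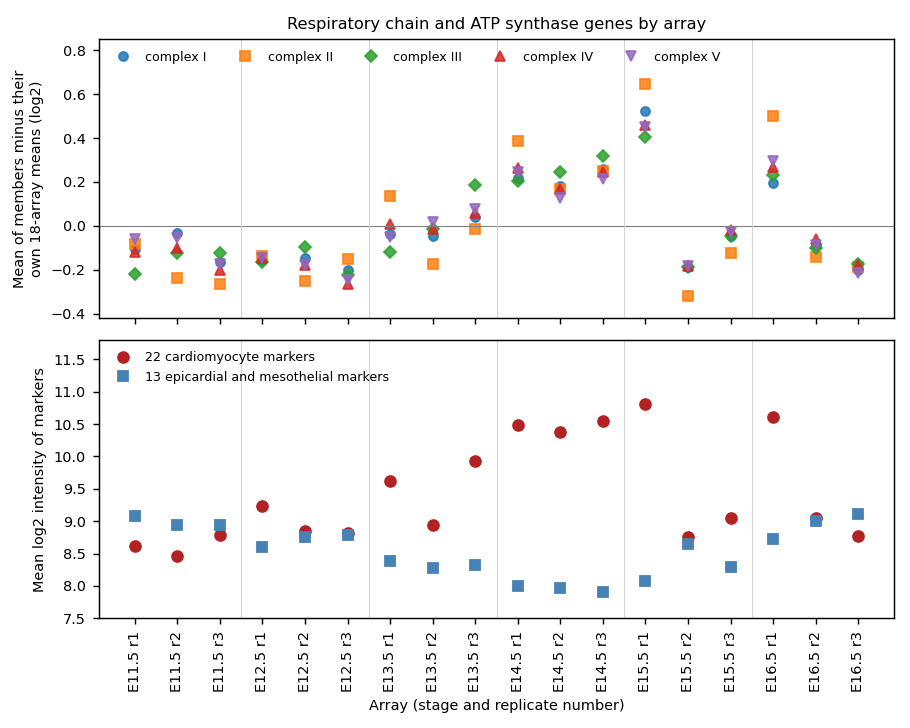
Top, for each of the 18 arrays, the mean over the tested genes of each complex of log2 intensity minus the gene's own mean over all arrays (5 symbols, 1 for each complex). Bottom, on the same arrays, the mean log2 intensity of 22 cardiomyocyte markers (circles) and of 13 epicardial and mesothelial markers (squares). The 3 E14.5 arrays and replicate 1 of E15.5 and of E16.5 are the highest for the members as a whole and for the cardiomyocyte markers.

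Counting genes gave the same picture. At E11.5 between 9 and 20 of the 78 members were above their own mean, and at E14.5 between 60 and 72 were. Replicate 1 of E15.5 had 76 above and replicates 2 and 3 had 6 and 19, while at E16.5 the counts were 68, 21 and 9. For 47 of 78 members (60.3%) the highest stage mean was that of E14.5, against 14.3% of all genes tested, and for 16 more it was E15.5. Only 3 had it at E11.5, against 25.2% of all genes. All 3 E14.5 arrays were above all 3 E11.5 arrays for 51 of 78 members, against 22.5% of all genes tested. By complex this held for 27 of 42, 2 of 3, 5 of 6, 7 of 11 and 10 of 16 genes of complexes I to V, for 5 of 5 measured core subunits and for 2 of 7 measured assembly factors of complex I.

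**Figure D2:**
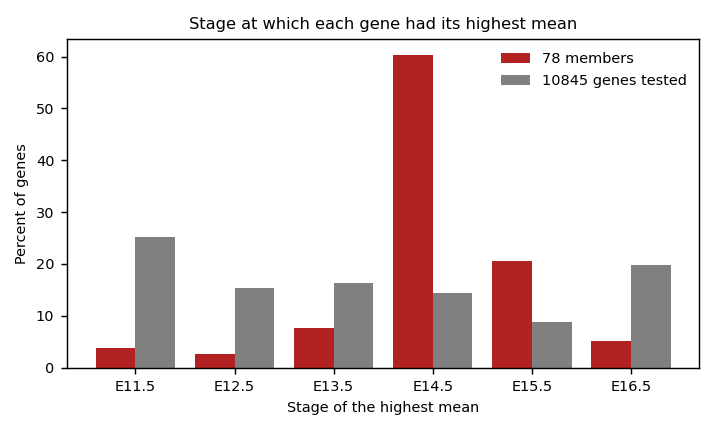
For each stage, bars give the percent of the 78 tested members and of the 10845 genes tested whose highest stage mean was at that stage. The members' bar at E14.5 reaches 60.3% and that of all genes 14.3%.

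Differences between stages were tested with limma on all 18 arrays, with p adjusted by Benjamini-Hochberg over all 10845 genes and calls at an adjusted p under 0.05. Over the 6 stages 8 of 78 members (10.3%) were called by the F test, against 40.7% of all genes. They were Ndufa6, Ndufaf4 and Ndufaf5 of complex I (3 of 42), Uqcrc2 of complex III (1 of 6), Cox4i1, Cox4i2 and Cox6b1 of complex IV (3 of 11) and Atp5o of complex V (1 of 16), while 0 of the 3 complex II genes were called (1 at an unadjusted p under 0.05). The spread within stages was wide for these genes: the median within-stage SD was 0.25 for members and 0.11 for all genes, and at E15.5 it was 0.39 and 0.10. Members and all genes were not matched for brightness here, and the background in every value narrows the log2 spread of dim genes. Without replicate 1 of E15.5 and of E16.5 the medians were 0.15 and 0.10, and 40 of 78 members (51.3%) were called against 43.6% of all genes. The count was 27 (34.6%) without replicate 1 of E13.5, against 54.7% of all genes. It was 30 (38.5%) and 21 (26.9%) without replicates 1 and 2 of E15.5, against 44.8% and 39.8%, and 15 (19.2%) without replicate 1 of E16.5, against 39.3%. It was 3 to 5 without any array of E11.5, E12.5 or E14.5 or without replicate 2 of E13.5, against 35% to 38.8%. Without the 5 arrays of highest cardiomyocyte markers, which removes E14.5 as a stage, 8 of 78 were called against 33.2%.

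**Figure D3:**
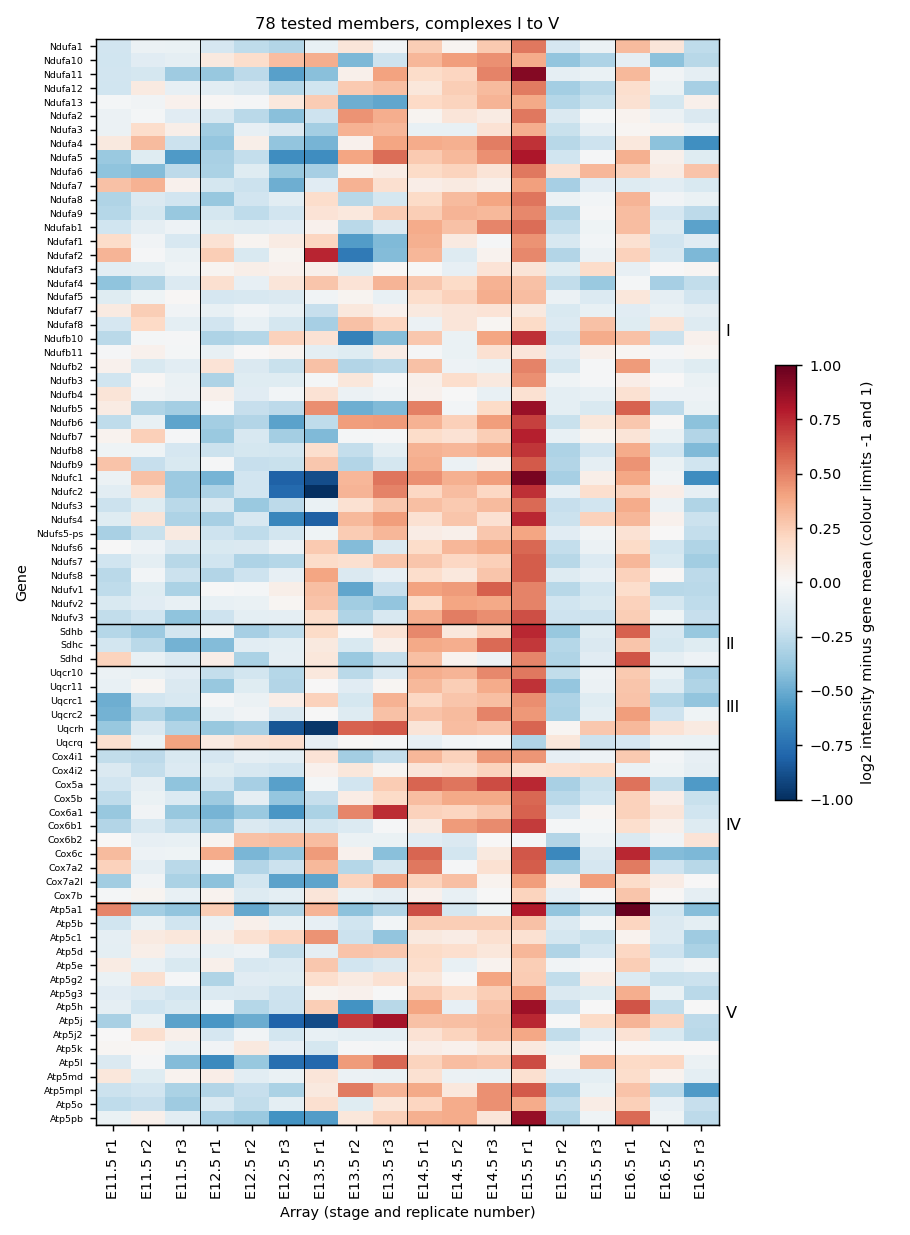
Each row is a tested member, grouped by complex and in alphabetical order, and each column an array. Colour gives log2 intensity minus the gene's mean over the 18 arrays, with colour limits at -1 and 1. The columns of E14.5 and of replicate 1 of E15.5 and of E16.5 are red for most rows, and a set of rows turns dark blue at replicate 1 of E13.5.

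Among complex I genes Ndufa6, an accessory subunit of the matrix arm, was called by the F test, between E16.5 and E11.5 and for the slope. Its log2 intensities were 10.62, 10.59 and 10.77 at E11.5, 10.71, 10.91 and 10.65 at E12.5 and 10.70, 11.06 and 11.10 at E13.5. They were 11.22, 11.25 and 11.15 at E14.5, 11.55, 11.18 and 11.36 at E15.5 and 11.26, 11.11 and 11.31 at E16.5. All 9 arrays from E14.5 on were above all 9 earlier ones. E16.5 was above E11.5 by 0.57 ± 0.11 (SE, adjusted p = 0.00108) and the slope was 0.14 ± 0.019 per day (adjusted p = 2.64e-05), which made it the only member of 78 called between E16.5 and E11.5, against 34.6% of all genes, 15.9% higher and 18.7% lower. Its F test and both of these calls were kept whichever array was left out.

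Ndufaf4, an assembly factor, had an arched course. Its values were 8.62, 8.72 and 8.88 at E11.5, 9.18, 8.94 and 9.14 at E12.5, 9.30, 9.16 and 9.36 at E13.5 and 9.29, 9.21 and 9.36 at E14.5. At E15.5 they were 9.31, 8.78 and 8.64, and at E16.5 9.0, 8.69 and 8.77. E12.5 to E14.5 did not overlap with E11.5, and replicates 2 and 3 of E15.5 and E16.5 were back in the E11.5 range. Its curve, the quadratic term over the 6 stages, was -0.08 ± 0.016 (adjusted p = 0.00457), where a negative value means that the middle stages were higher, and the F test gave an adjusted p of 0.0161. Curves were called for 3 of 78 members, Ndufaf4, Cox4i2 and Atp5o, all arched, against 12.4% of all genes called in either direction and 5.92% in that one. Ndufaf5, also an assembly factor, was called by the F test (adjusted p = 0.0464) with 8.02, 8.08 and 8.21 at E14.5 and 7.73, 7.80 and 7.86 at E11.5, and it lost that call on leaving out any of 13 of the 18 arrays, with adjusted p between 0.005 and 0.187.

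The 5 measured core subunits of complex I are Ndufv1, Ndufv2, Ndufs3, Ndufs7 and Ndufs8. In all 5 the 3 E14.5 arrays were above the 3 E11.5 arrays, and 0 were called over the stages (1 at an unadjusted p under 0.05). Ndufv1, which binds NADH, had 11.22, 11.36 and 11.16 at E11.5, 11.88, 11.90 and 12.08 at E14.5, 11.98, 11.20 and 11.29 at E15.5 and 11.65, 11.20 and 11.21 at E16.5. Its replicates 2 and 3 at the last 2 stages lay within the E11.5 range, and the F test gave an adjusted p of 0.0934. Ndufs7 had 10.12, 10.23 and 10.04 at E11.5, 10.51, 10.48 and 10.60 at E13.5, 10.60, 10.52 and 10.56 at E14.5 and 10.65, 10.16 and 9.97 at E16.5 (adjusted p = 0.147). Its E13.5 arrays already stood above E11.5 without overlap, while Ndufv1 had 11.78, 10.96 and 11.25 at E13.5. The median difference of the 5 genes between E16.5 and E11.5 was 0.13, and that of the 7 measured assembly factors was -0.02.

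A pair of other accessory subunits of complex I rose by their slope. Ndufa8, a subunit of the membrane arm on its intermembrane side, had 10.45, 10.61 and 10.56 at E11.5, 10.94, 11.07 and 11.14 at E14.5 and 11.09, 10.71 and 10.68 at E16.5, and its slope was 0.085 ± 0.026 per day (adjusted p = 0.017). Ndufa11 had 9.70, 9.71 and 9.53 at E11.5, 10.07, 10.10 and 10.38 at E14.5 and 10.21, 9.85 and 9.79 at E16.5, with a slope of 0.11 ± 0.041 (adjusted p = 0.0459). The call of Ndufa11 was lost without any of 13 arrays (adjusted p up to 0.128) and that of Ndufa8 without E16.5 replicate 1 (adjusted p = 0.0624). Ndufb4, at 6.64 to 6.91 on all arrays and above the floor on 6 of them, had the largest F test p of complex I (adjusted p = 0.994). Ndufa4 had 10.83, 11.05 and 10.52 at E11.5, 11.10, 11.09 and 11.25 at E14.5 and 10.84, 10.32 and 10.12 at E16.5, with no call (F test adjusted p = 0.263).

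Of complex II only 3 genes could be read, since Sdha, the flavoprotein, was under the floor. Sdhb, the iron-sulfur subunit, had 8.78, 8.71 and 8.88 at E11.5, 9.26, 9.08 and 9.22 at E13.5, 9.55, 9.18 and 9.30 at E14.5, 9.82, 8.69 and 8.95 at E15.5 and 9.66, 8.91 and 8.69 at E16.5. The membrane anchor Sdhc had 10.52, 10.43 and 10.23 at E11.5, 11.08, 11.07 and 11.27 at E14.5, 11.40, 10.41 and 10.56 at E15.5 and 10.98, 10.52 and 10.58 at E16.5. For both genes E14.5 lay above E11.5 without overlap, and at E15.5 and E16.5 replicate 1 was above replicates 2 and 3. The F test adjusted p was 0.406 for Sdhb and 0.0753 for Sdhc. Without replicate 1 of E16.5 the median difference of complex II between E16.5 and E11.5 was 0.01 in place of 0.30. Sdhd, the other anchor and close to the floor, had its highest array of each stage in replicate 1, with 7.32, 7.02 and 6.95 at E11.5 and 7.73, 7.01 and 7.04 at E16.5.

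Complex III held genes that moved in opposite directions. Uqcrc2, a core protein of the complex, had 10.72, 10.89 and 10.78 at E11.5, 11.12, 11.15 and 11.04 at E12.5, 11.48, 11.50 and 11.69 at E14.5, 11.62, 10.87 and 11.10 at E15.5 and 11.61, 10.99 and 11.15 at E16.5. E12.5 and E14.5 were above E11.5 without overlap, while E15.5 overlapped it in replicate 2. Its slope was 0.08 ± 0.030 (adjusted p = 0.0394) and its F test adjusted p 0.0479, calls lost without any of 9 and of 12 arrays (adjusted p up to 0.139 and 0.135). Uqcrq, a small subunit, was the only member called for a falling slope, by 0.06 per day (SE 0.018, adjusted p = 0.0132). Its values were 7.55, 7.33 and 7.79 at E11.5, 7.48, 7.54 and 7.56 at E12.5, 7.09, 7.51 and 7.19 at E15.5 and 7.23, 7.33 and 7.33 at E16.5, and E11.5 and E16.5 met at 7.33.

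The hinge protein gene Uqcrh rose by slope (0.14 ± 0.052 per day, adjusted p = 0.0424), with an array that stood apart. Its values were 11.22, 11.46 and 11.30 at E11.5, 11.22, 11.27 and 10.75 at E12.5, 10.63, 12.19 and 12.21 at E13.5, 11.73, 11.91 and 11.89 at E14.5 and 11.92, 11.74 and 11.69 at E16.5. At E13.5 replicate 1 was the lowest of the 18 arrays and replicates 2 and 3 the highest. Without that array the F test adjusted p was 0.000286 in place of 0.186, and the slope call was lost without any of 12 arrays (adjusted p up to 0.094). The small subunits Uqcr10 and Uqcr11 were not called (F test adjusted p = 0.0739 and 0.288). Uqcr10 had 12.43, 12.42 and 12.38 at E11.5, 12.86, 12.83 and 12.97 at E14.5 and 12.75, 12.42 and 12.16 at E16.5, so the last stage spanned the E11.5 range.

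In complex IV the smallest F test p was that of a dim gene. Cox4i2, the subunit 4 isoform known for its use at low oxygen, had 6.68, 6.59 and 6.69 at E11.5, 6.71, 6.66 and 6.63 at E12.5 and 6.87, 6.94 and 6.85 at E13.5. It had 6.94, 6.98 and 7.04 at E14.5, 6.97, 6.99 and 7.02 at E15.5 and 6.76, 6.78 and 6.73 at E16.5, around a floor of 6.77. All 9 arrays of E13.5 to E15.5 were above all 9 others. These 9 and replicate 2 of E16.5 were the 10 of 18 above the floor, and all arrays of E11.5 and E12.5 were under it. The gene thus passed the filter through the stages where it was high, so this separation and its tests are not independent of that filter. The F test adjusted p was 2.95e-05, the slope 0.046 ± 0.0075 per day (adjusted p = 0.000157) and the curve -0.038 ± 0.0051 (adjusted p = 0.000227), and these 3 calls were kept whichever array was left out. Cox4i2 also gave the 2 calls in the 5 steps between neighbouring days. It rose by 0.22 ± 0.04 between E12.5 and E13.5 (adjusted p = 0.0155) and fell by 0.24 between E15.5 and E16.5 (SE 0.04, adjusted p = 0.0326), against 4.86% and 0.443% of all genes called in those steps. The step call at E13.5 was lost without any of 3 arrays (adjusted p up to 0.0762) and that at E16.5 without any of 7 (up to 0.179).

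Cox4i1, the isoform used in most tissues, had 12.19, 12.18 and 12.28 at E11.5, 12.58, 12.10 and 12.21 at E13.5, 12.77, 12.67 and 12.88 at E14.5, 12.88, 12.36 and 12.39 at E15.5 and 12.70, 12.42 and 12.36 at E16.5. Replicate 1 was the highest array of E13.5, E15.5 and E16.5, a pattern that Cox4i2 did not show. Its slope was 0.07 ± 0.024 per day (adjusted p = 0.0223) and its F test adjusted p 0.0357, calls lost without any of 3 and of 10 arrays (adjusted p up to 0.0782 and 0.116). Cox6b1, a subunit at the interface of the oxidase dimer, had 12.09, 12.22 and 12.13 at E11.5, 12.48, 12.81 and 12.86 at E14.5, 13.09, 12.37 and 12.37 at E15.5 and 12.56, 12.44 and 12.26 at E16.5, and E14.5 to E16.5 lay above E11.5 without overlap. It rose by 0.09 ± 0.027 per day (adjusted p = 0.0146), and this call was kept whichever array was left out, while its F test call (adjusted p = 0.0335) was lost without any of 9 (up to 0.0899). Its testis-type relative Cox6b2 stayed between 7.07 and 7.67 on all arrays and was not called (F test adjusted p = 0.167).

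Cox7a2l rose by 0.11 ± 0.032 per day (adjusted p = 0.0136), with 8.99, 9.30 and 9.03 at E11.5, 8.81, 9.56 and 9.75 at E13.5 and 9.53, 9.42 and 9.34 at E16.5. E16.5 was above E11.5 without overlap, and E13.5 replicate 1 was among the lowest arrays of the course. Cox7a2 had 7.78, 7.46 and 7.29 at E11.5, 8.08, 7.54 and 7.71 at E14.5 and 8.08, 7.34 and 7.27 at E16.5, with replicate 1 the highest in each, and was not called (F test adjusted p = 0.832). Cox6a1, the form of subunit 6a outside muscle, had 10.97, 11.32 and 10.97 at E11.5, 11.04, 11.84 and 12.09 at E13.5 and 11.58, 11.47 and 11.15 at E16.5 (F test adjusted p = 0.0618). Cox6c had the largest F test p of the complex (adjusted p = 0.975), with 10.23, 9.86 and 9.86 at E11.5 and 10.66, 9.48 and 9.46 at E16.5.

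The muscle isoforms that the choice of genes left out differed far more between the same arrays. Cox6a2 had 7.76, 7.73 and 8.17 at E11.5, 10.89, 10.85 and 11.44 at E14.5, 11.77, 9.27 and 9.25 at E15.5 and 11.50, 9.65 and 9.01 at E16.5. Cox8b had 6.64, 6.67 and 6.72 at E11.5, 8.65, 8.54 and 9.29 at E14.5, 10.70, 8.16 and 8.39 at E15.5 and 10.32, 8.40 and 7.92 at E16.5. In both, replicate 1 of the last 2 stages was over 1 log2 unit above its stage mates, and those mates were still above E11.5. E16.5 was above E11.5 by 2.17 ± 0.65 for Cox6a2 (adjusted p = 0.0173), by 2.20 ± 0.59 for Cox8b (adjusted p = 0.00923) and by 1.29 ± 0.52 for Cox7a1, which missed the threshold (adjusted p = 0.0676).

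In complex V Atp5o, a subunit of the stalk that ties the catalytic head to the membrane part, was called over the stages (adjusted p = 0.0255). Its values were 12.08, 12.10 and 11.97 at E11.5, 12.19, 12.09 and 12.23 at E12.5, 12.49, 12.21 and 12.44 at E13.5 and 12.55, 12.70 and 12.79 at E14.5. They were 12.70, 12.08 and 12.41 at E15.5 and 12.56, 12.25 and 12.10 at E16.5. E13.5 and E14.5 were above E11.5 without overlap, and at E15.5 replicate 2 was back at the E11.5 level. The slope was 0.06 ± 0.024 per day (adjusted p = 0.0398) and the curve -0.05 ± 0.016 (adjusted p = 0.0403), and leaving out any of 11 and of 12 arrays ended these calls (adjusted p up to 0.138 and 0.121), as 4 arrays did for the F test (up to 0.0877). Atp5l, subunit g of the membrane part, rose by 0.13 ± 0.045 per day (adjusted p = 0.0313), with 11.47, 11.60 and 11.18 at E11.5, 10.83, 12.04 and 12.19 at E13.5 and 11.81, 11.82 and 11.55 at E16.5. Leaving out any of 6 arrays ended this call (adjusted p up to 0.091).

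Other subunits of complex V missed the threshold. Atp5b, the catalytic beta subunit, had 13.37, 13.50 and 13.37 at E11.5, 13.82, 13.82 and 13.82 at E14.5, 13.86, 13.43 and 13.54 at E15.5 and 13.78, 13.42 and 13.47 at E16.5, so E14.5 lay above all E11.5 arrays (F test adjusted p = 0.0569). Quantile normalized arrays share nearly the same set of values, so its 3 equal values reflect shared ranks and not an absence of spread. Subunit c, whose ring turns in the membrane, is made from several genes, and Atp5g2 and Atp5g3 were on the array. Atp5g3 had 12.94, 12.92 and 12.87 at E11.5, 13.32, 13.23 and 13.31 at E14.5 and 13.42, 12.99 and 12.79 at E16.5, and Atp5g2 had 10.12, 10.34 and 10.17, 10.29, 10.19 and 10.57 and 10.04, 9.96 and 9.97 (F test adjusted p = 0.226 and 0.0615). All 3 E16.5 arrays of Atp5g2 were below all E11.5 arrays. Atp5md, above the floor on 8 arrays, had the largest F test p of complex V (adjusted p = 0.99).

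**Figure D4:**
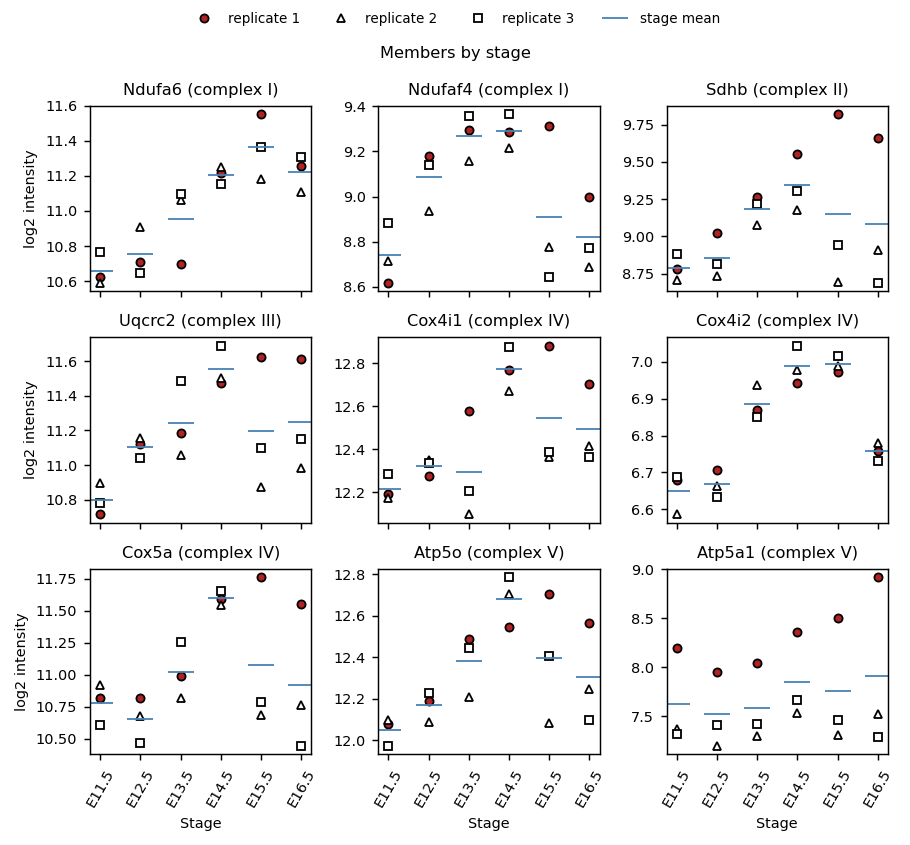
Log2 intensity of 9 members on each array by stage, with replicate 1 as filled circles, replicate 2 as triangles, replicate 3 as squares and the stage mean as a bar. The vertical scale differs between panels. Sdhb, Uqcrc2, Cox4i1, Cox5a and Atp5o have replicate 1 as the highest array of E15.5 and E16.5, Cox4i2 does not, and Atp5a1 has it highest in all 6 stages.

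Over all members the slope was called for 12 of 78 (15.4%), 11 higher and 1 lower, against 42% of all genes, 18.2% higher and 23.7% lower. The 11 were Ndufa6, Ndufa8, Ndufa11, Uqcrc2, Uqcrh, Cox4i1, Cox4i2, Cox6b1, Cox7a2l, Atp5l and Atp5o, and the lower was Uqcrq. Slopes were above 0 for 65 of 78, with a median of 0.04 per day against -0.0057 for all genes. Without replicate 1 of E15.5 and of E16.5 the slope was called for 4 of 78 against 41.5% of all genes, and it was above 0 for 42 of 78. The count was 6 and 7 without replicates 1 and 3 of E11.5, against 38.2% and 38.1% of all genes. It was 21 (26.9%) without replicate 2 of E15.5, against 40.8%, and 5 without replicate 1 of E16.5, against 39.3%. The same 2 arrays bore on the curve, which was called arched for 24 of 78 (30.8%) without them, against 17.2% of all genes called in either direction.

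By complex the medians of the difference between E16.5 and E11.5 were 0.07, 0.30, 0.09, 0.14 and 0.11 for complexes I to V, with -0.03 for all genes. The medians of the slope per day were 0.03, 0.07, 0.04, 0.06 and 0.04. These medians were not tested against each other, and complex II rests on 3 genes. Differences between E16.5 and E11.5 were above 0 for 27 of 42, 3 of 3, 5 of 6, 10 of 11 and 12 of 16 genes, in all 57 of 78. Without replicate 1 of E16.5 they were above 0 for 35 of 78, and the members' median turned from 0.10 to -0.02, with -0.03, 0.01, -0.09, 0.10 and -0.03 for complexes I to V. From each day to the next the members' median moved by -0.05, 0.16, 0.20, -0.13 and -0.10, while 5.54%, 4.86%, 4.56%, 2.53% and 0.443% of all genes were called in these steps and, apart from Cox4i2, 0 members. Over the 5 steps together these 2 calls were 0.513% of the members' tests, against 3.59% for all genes. Leaving out replicate 1 of E13.5 gave 36 calls of members (9.23%, against 11.9%), and leaving out replicate 1 of E15.5 gave 34 (8.72%, against 6.86%).

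Within stages most members were higher on arrays with higher cardiomyocyte markers. A fit with 1 mean per stage and the cardiomyocyte marker mean of each array as a covariate, chosen after these arrays had been seen, gave a positive coefficient for 74 of 78 members. It was called for 45 of 78 (57.7%), all positive, against 4.96% of all genes called positive, with a median of 0.26 log2 units per log2 unit of the marker mean against -0.01 for all genes. By complex 22 of 42, 3 of 3, 4 of 6, 7 of 11 and 9 of 16 were called, with medians of 0.27, 0.36, 0.31, 0.23 and 0.22. The assembly factors of complex I were at 0.15, with 2 of 7 called, and the 3 muscle oxidase isoforms at 1.16. Sdhb had a coefficient of 0.49 ± 0.05 (adjusted p = 1.2e-05). Cox5a, an oxidase subunit named after its values were seen, had 0.52 ± 0.05 (adjusted p = 1.5e-05), and on the arrays it had 10.82, 10.92 and 10.61 at E11.5, 11.59, 11.55 and 11.66 at E14.5, 11.77, 10.68 and 10.79 at E15.5 and 11.55, 10.76 and 10.45 at E16.5. The coefficient was -0.09 for Uqcrq and -0.01 for Cox4i2, neither called. In the same fit 9 of 15 genes of pyruvate dehydrogenase and the tricarboxylic acid cycle, 9 of 14 of mobile carriers and ubiquinone synthesis and 4 of 6 carriers and porins were called positive. Of the endothelial and endocardial markers 5 of 11 were called negative (median -0.29), as were 5 of 13 epicardial and mesothelial markers (median -0.20). Of all 10845 genes 533 were called negative.

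**Figure D5:**
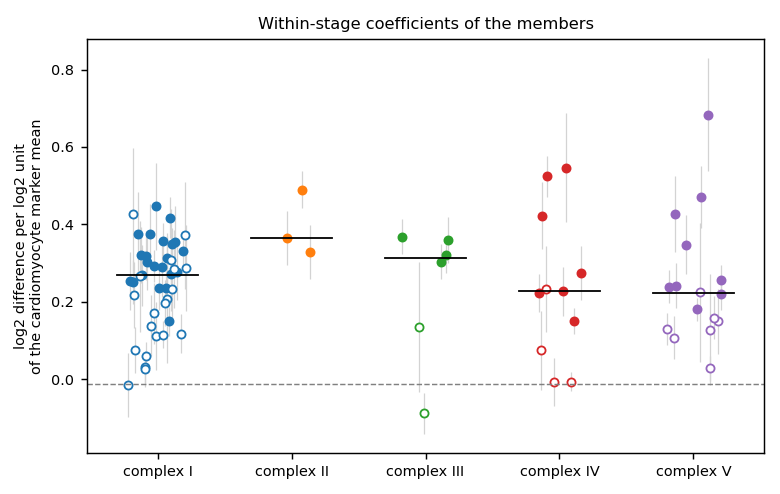
Coefficients of the 78 members on the cardiomyocyte marker mean within stages, by complex, with SE as grey lines. Filled points have an adjusted p under 0.05, black bars are medians of each complex and the dashed line is the median of all genes tested. Of the points 45 are filled, and all of these are above 0.

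These coefficients rest on few arrays. Without replicate 1 of E15.5 they were called for 10 of 78 members against 1.7% of all genes, and without replicate 1 of E16.5 for 23 against 3.14%. Without replicate 1 of E15.5 limma called 3 of 15, 2 of 14 and 0 of 6 genes of the 3 lists above, and 0 of 11 endothelial and 0 of 13 epicardial markers (3, 2 and 5 at an unadjusted p under 0.05 for the carriers and porins and for these 2 marker lists). Without both, limma called 0 of 78 (3 at an unadjusted p under 0.05) against 0.314% of all genes, and 55 of 78 were above 0. With the marker mean in the fit, E16.5 against E11.5 was called for 8 members, 1 higher and 7 lower, against 37.2% of all genes, and the F test for 6 against 39.8%. What share of the members' differences goes with cardiomyocyte RNA in the sort and what share with the marked cells was not tested.

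Some members stood out by replicate number or on a single array. For 13 of 78 members (16.7%) replicate 1 was the highest array in all 6 stages, against 4.32% of all genes, and for 0 members replicates 2 or 3 were. Among the 13 were Cox6c, Cox7a2, Sdhd, Atp5md, Ndufb4 and Atp5a1, the catalytic alpha subunit, named after its values were seen. Atp5a1 had 8.20, 7.37 and 7.32 at E11.5, 7.96, 7.20 and 7.41 at E12.5, 8.05, 7.30 and 7.42 at E13.5, 8.36, 7.53 and 7.67 at E14.5, 8.50, 7.31 and 7.46 at E15.5 and 8.92, 7.52 and 7.29 at E16.5. Its lowest replicate 1 value was above all values of replicates 2 and 3. A dimmer probe of the same gene differed by -0.09 between E16.5 and E11.5 where this probe differed by 0.28.

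At E13.5 replicate 1 was more than 0.5 log2 units below both other arrays for 15 of 78 members (19.2%, against 4.97% of all genes) and more than 0.5 above both for 13 (16.7%, against 6.19%). In the first set the gap was 1.60 for Atp5j, 1.56 for Uqcrh, 1.36 for Ndufc2, 1.22 for Ndufc1 and Atp5l and 1.15 for Ndufs4. The second set holds, among others, Ndufv1, Ndufv2, Atp5a1 and Ndufaf2. The lowest correlation between arrays of a stage was at E13.5, 0.960 over the 20037 probes above the floor on at least 3 arrays. What sets this array apart was not tested.

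The genes that serve the chain were read beside it, from lists that share no gene with the members. Of 14 measured genes of mobile carriers and ubiquinone synthesis, 2 were higher at E16.5 than at E11.5 and 0 lower (14.3%, against 34.6% of all genes). Cycs, the somatic cytochrome c gene, had 10.05, 9.94 and 10.02 at E11.5, 11.14, 11.17 and 11.43 at E14.5 and 11.17, 10.66 and 10.42 at E16.5, without overlap between any of these stages and E11.5, and differed by 0.74 ± 0.26 (adjusted p = 0.0344). Coq10b, which binds ubiquinone, had 7.94, 7.67 and 7.82 at E11.5 and 8.56, 8.49 and 8.42 at E16.5 and differed by 0.68 ± 0.10 (adjusted p = 6.92e-05). Of 15 measured genes of pyruvate dehydrogenase and the tricarboxylic acid cycle, 1 was called higher, Pdha1 by 0.45 ± 0.17 (adjusted p = 0.0493), and 1 was called over the stages, Dlst (adjusted p = 0.0116). Of 6 measured carriers and porins 1 fell, Vdac1 by 0.29 (adjusted p = 0.012). The medians of these 3 lists between E16.5 and E11.5 were 0.07, 0.19 and 0.01, against -0.03 for all genes.

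Of 30 measured assembly factors outside the choice of genes, 4 were called lower at E16.5 than at E11.5 (13.3%) and 0 higher, against 18.7% of all genes lower and 15.9% higher. By slope 5 were called lower and 1 higher (20% in all), against 23.7% of all genes lower and 18.2% higher. The 1 that rose was Cox17, which carries copper to the oxidase, by 0.17 ± 0.050 per day (adjusted p = 0.0143). Cox19, a copper-handling assembly factor of the oxidase, had 9.65, 9.70 and 9.54 at E11.5, 8.68, 8.77 and 8.92 at E14.5 and 8.72, 8.93 and 8.88 at E16.5 and fell by 0.79 (SE 0.11, adjusted p = 5.4e-05). Acad9, Bcs1l and Sco1 fell by 0.29, 0.31 and 0.18. The list median was -0.07, against 0.10 for the 78 members, and without replicate 1 of E16.5 the medians were -0.12 and -0.02.

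Regulators of mitochondrial growth went in both directions. Of 18 measured 10 were called over the stages (55.6%, against 40.7% of all genes). Between E16.5 and E11.5 3 were higher and 5 lower (44.4%, against 34.6% of all genes). Of all genes 15.9% were called higher and 18.7% lower. The coactivator Ppargc1b had 7.15, 7.12 and 7.18 at E11.5, 8.09, 8.20 and 8.16 at E14.5 and 7.95, 7.63 and 7.68 at E16.5 and rose by 0.60 ± 0.13 (adjusted p = 0.00196), with an arched curve (adjusted p = 0.00137). The estrogen-related receptor genes Esrrb and Esrra rose by 0.37 (adjusted p = 0.000214) and 0.43 (adjusted p = 0.0174). Ppargc1a, the coactivator best known for driving mitochondrial growth, had 6.96, 6.79 and 7.08 at E11.5, 8.77, 8.65 and 8.76 at E14.5, 8.39, 7.20 and 7.35 at E15.5 and 8.40, 7.12 and 7.01 at E16.5. Its arch was called (adjusted p = 0.0205), and replicate 1 of E15.5 and of E16.5 stood over 1 log2 unit above the others of their stages. The 5 that fell serve the mitochondrial genome: Tfam by 0.49 (adjusted p = 0.000772), Tfb1m by 0.46, Tefm and Twnk by 0.30 each and Polrmt by 0.28. Nrf1 and Gabpa, whose motifs were counted above, were not called over the stages (adjusted p = 0.0864 and 0.184), and Yy1 was under the floor on all arrays.

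For 23 tested members 31 other probes of the same gene were above the floor on at least 3 arrays. The difference between E14.5 and E11.5 had the same sign as in the brightest probe for 27 of the 31, and the slope for 26. For the difference between E16.5 and E11.5 the signs agreed less often than in either of these. For Atp5o, 1 of 2 other probes was near the floor, and both had smaller slopes (0.0028 and 0.02 per day against 0.06). Between E16.5 and E11.5 these 2 probes differed by 0.01 and -0.13, against 0.25 in the brightest probe.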

How the data were processed

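Log2 of the authors' deposited intensities was used. Per the submitters' processing notes they come from GenomeStudio 2011.1, and how they were normalized is not given in the sources used here. Intensities of 45281 probes run from 83.8 to 17358 with a median of 104, and the sorted values of the 18 arrays differ by at most 2.04, so they are quantile normalized. A second table was not used, because its 18 signal columns are only numbered and could not be tied to arrays by name. For arrays their number limits the precision.

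The background mode was 99.1 and the floor, at a tail of 0.01, 109. The 20037 probes above it on at least 3 arrays were kept, 37.2% of all values being above it. On the platform 34885 probes have 1 listed symbol, 18 have several and 10378 have none, and 34807 matched RefSeq by Entrez number with 0 symbols changed. The brightest kept probe stood for each gene. limma 3.58.1 (R 4.3.3, jsonlite 2.0.0) fitted 1 mean per stage on all arrays with 12 residual degrees of freedom, and gave the F test, E16.5 against E11.5, the slope, the quadratic curve and 5 daily steps, adjusted by Benjamini-Hochberg over 10845 genes. The procedure was tested on simulated data.

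The members and all lists were chosen with earlier results of these data known. Named genes are the called members, in each complex the 2 with the smallest and the 1 with the largest F test p, isoform pairs, complex I core and Sdh genes, the 3 muscle isoforms and up to 4 called genes of each list; others are said to be chosen after their values were seen. Same-numbered arrays deviated together, with a correlation over 0.1, in 33 of 45 pairs but not in all (-0.25 to 0.72). The numbers were not taken to pair the arrays over the whole course, so an effect of the number may remain in the F test, slope and curve. With the number as a block these called 12, 14 and 5 members in place of 8, 12 and 3. The daily steps then gave 5 calls in place of 2. All 3 pairs were over 0.1 in 6 of 15 pairs of stages. Of the comparisons made these were E16.5 against E11.5 (0.243 to 0.286), E12.5 against E11.5 and E16.5 against E15.5, and in these a fit with the number as a block called the same members. Alternatives were normexp offsets of 16 and 50, cyclic loess, a stricter tail of 0.001, no filter, array weights, a replicate block, 2 stages only, and leaving out arrays. Added after the data were seen were leaving out the 5 arrays with the highest cardiomyocyte markers, and that marker mean as a covariate.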

Additional observations from a re-analysis of the deposited data

How the results depend on the processing

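The counts of called members moved with single arrays and with the weighting of arrays, and the cause was not tested except where fewer arrays show it. Shares in brackets are of all genes under the same setting unless members are named. Over the stages 8 members were called (40.7%). The count was 13 after cyclic loess (39%) and 4 with no filter (21.7%). With array weights it was 61 (78.2% of members and 69.7% of all genes). It was 40 without replicate 1 of E15.5 and of E16.5 together (43.6%), and leaving out single arrays gave 3 to 30 (35% to 54.7%). Between E16.5 and E11.5 the count was 1 (34.6%). It became 2 with a normexp offset of 16 (35%), 3 after loess (32.5%) and 7 with array weights (44.7%). With only the 2 stages in the fit it was 4 (35.3%). Without both arrays or without the 5 arrays of highest cardiomyocyte markers it was 2 (33.5% and 30.7%). With the marker mean as a covariate it was 8 (1 higher and 7 lower, against 37.2%). Single arrays gave 1 to 4 (29% to 39.9%). For the slope 12 (42%) became 24 after loess (39.9%), 7 with no filter (23.1%) and 22 with array weights (52.4%). Without both arrays or the 5 arrays it was 4 (41.5% and 38%). With the covariate it was 6 (2 higher and 4 lower in place of 11 and 1, against 41%). Single arrays gave slope counts of 5 to 21 (37.6% to 47%). Curve calls went from 3 (12.4%) to 5 with a normexp offset of 50 (12.8%), a tail of 0.001 (13.7%) or the replicate block (14.8%). Array weights gave 27 curve calls (34.6% of members and 28.4% of all genes). Without both arrays there were 24 (30.8% of members and 17.2% of all genes), and single arrays gave 2 to 12 (9.17% to 20.2%). Over the daily steps 2 calls (3.59%) became 5 with the replicate block (5%) or the covariate (4.44%). Array weights gave 102 (26.2% of the members' tests, against 23.3% for all genes). Leaving out both arrays gave 54 (13.8% of the members' tests, against 7.94%), and single arrays gave 0 to 36. With the replicate block the F test called 12 members (45.6% of all genes) and the slope 14 (45.2%). Between E16.5 and E11.5 the block called 1 member, Ndufa6 as before, while all genes called went from 34.6% to 38%.

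The median differences of the complexes turned or shrank without the muscle-marker arrays. Without both arrays the complex II medians were 0.0079 (E16.5 minus E11.5) and 0.0023 (slope), those of complex III -0.0912 and -0.0019, and the slope of complex IV 0.0241. Without the 5 arrays the complex II medians were 0.0079 and -0.0108 and those of complex III -0.0912 and -0.0167, and the slopes of complexes I, IV and V were -0.0075, 0.0099 and -0.0024. With the covariate the differences were -0.1154, -0.1221, -0.1767 and -0.1072 for complexes I, II, III and V, and the slopes -0.0116, -0.0252, -0.0219, 0.0075 and -0.0078 for complexes I to V. Leaving out single arrays gave differences of -0.03 to 0.16 for complex I, 0.0079 to 0.38 for II, -0.0912 to 0.23 for III, 0.10 to 0.30 for IV and -0.03 to 0.22 for V, and slopes of 0.0155 to 0.0512, 0.0309 to 0.0918, 0.0208 to 0.0632, 0.0433 to 0.0799 and 0.0101 to 0.0545. Of the alternative values for single named members 1237 kept their side of the threshold, 81 crossed to a call and 186 lost one. Many of these are F test p-values, which have no direction. Direction was followed only for differences already called in the main fit, and 0 of those values turned. Members that were not called had no such check. Genes near the floor of 109, such as Cox4i2, are limited by signal over background.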
